A study of Mus musculus with 16 samples.

Results

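Mouse oocytes grow several-fold in diameter while they are held in meiotic prophase, and the RNA they store in this period carries the egg and the early embryo until the embryonic genome is read. The genes described here are those whose RNA was chosen by its rise over this growth. They are the genes of chromosomes 1 to 19 with a mean of at least 3 RPKM (reads per kb of exon, scaled to the mapped reads of the library) at 60–65 μm that was at least 6 times the mean at 10–30 μm. A fixed set of symbols was left out: 5 single genes, the oocyte families Oog, Obox, Nlrp, Fbxw and Oas, predicted genes (Gm) and RIKEN clones. Of 25965 genes in the table, 24483 lay on chromosomes 1 to 19, 5250 of these had at least 3 RPKM at 60–65 μm, 81 also met the ratio of 6, and 52 remained once 29 were left out by symbol.

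The RNA-seq libraries were made in duplicate (A and B) from pools of wild-type C57BL/6Babr oocytes in 4 diameter classes (10–30 μm, 40–45 μm, 50–55 μm and 60–65 μm), and 1 column of values came from fully grown germinal vesicle (GV) oocytes. The mice were at postnatal days 5 to 7, 7 to 12, 9 to 14 and 13 to 16 for these classes in the same order, and at day 20 for GV oocytes, so oocyte size and the age of the mouse cannot be told apart. No treatment or mutant allele was used. Methylation was measured by RRBS, which samples CpG-rich sequence, in duplicate for the 3 larger classes, and by PBAT, which samples the whole genome, in 1 library at 60–65 μm. From the steps between low RPKM values, 1 read per kb was worth 0.00504 to 0.0101 RPKM in the RNA libraries, so a gene of 1 RPKM rested on about 99.4 to 198 reads per kb. All libraries were pools of many oocytes, and nothing states whether A and B came from separate mice, so the p-values below measure the spread between these libraries only.

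The growing oocyte is transcribed at a high rate, and most of its best-known products, such as the zona pellucida glycoproteins that form the egg coat, are switched on as soon as the primordial follicle is recruited. De novo DNA methylation follows in the same growth period and is laid down mainly across transcribed gene bodies, while CpG islands at active gene starts stay unmethylated. Genes whose RNA appears late in growth include transcription units that become active while methylation is under way.

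The starts of these genes held few CpG dinucleotides, a property that took no part in their choice. Within 1 kb of the start on either side the 52 genes had a median of 38.5 CpGs, with a range from 3 to 177, against 92 CpGs for the 5040 genes of 3 to 50 RPKM at 60–65 μm. Under 20 CpGs were found at 14 of the 52 starts (26.9%) but at 3.65% of those 5040. The 29 genes that met the same level and ratio but were left out by symbol had fewer still, with a median of 15 CpGs and 62.1% of starts under 20. Among genes of 3 to 50 RPKM the median was 93 CpGs where the change from 10–30 to 60–65 μm was within 1.5-fold, 98 at 1.5- to 3-fold and 62.5 at 3- to 6-fold. Over all 24483 genes of chromosomes 1 to 19, silent ones included, the median was 56 CpGs, with 21.6% of starts under 20. Starts are those of the deposited rows, and not every one of them is a known promoter. The nearest RefSeq promoter lay 230577 bases from the row start of Usp29, 12841 from Mbd3l2, 9058 from Zfp616 and 5175 from Sirt5. Zfp616 had the lowest count, 3 CpGs. Some members had no RefSeq match to check. These are descriptions of the sequence, with no test.

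**Figure D1:**
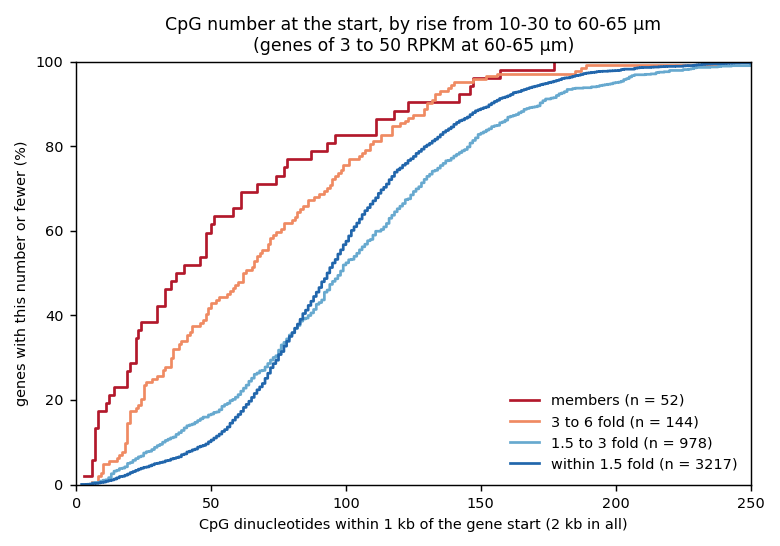
The x axis gives the number of CpG dinucleotides within 1 kb on either side of the gene start, and the y axis the percent of genes with that number or fewer, for genes of 3 to 50 RPKM at 60–65 μm divided by their fold change from 10–30 μm. The curve of the 52 members lies farthest to the left, with a median of 38.5 CpGs, followed by the 144 genes of 3 to 6 fold with 62.5.

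Promoter sequences from RefSeq (GRCm38.p6, 250 bases before to 50 after the start) matched 37 of the 52 genes by symbol, and 31 lay within 500 bases of the start given in the table. These 31 windows held a median of 7 CpGs and 51.3% G and C. The windows of 3880 genes of at least 3 RPKM at 60–65 μm held 23 CpGs and 61.3%, and those of all 15991 matched genes of chromosomes 1 to 19 and X held 14 CpGs and 56.7%. At least 10 CpGs were present in 12 of the 31 windows (38.7%), compared with 89.6% for the genes of at least 3 RPKM and 59.1% for all genes. The 150 bases before the start are printed for 4 members at the low and 3 at the high end of this range, ranked by the CpGs in the 300 bases. Only stretches that lay wholly outside the gene were taken, and Pramef17 and Zfp735, with 2 CpGs in 300 bases like Ifitm6, are not shown. They read 5′ to 3′ on the strand of the gene, with each CpG in capitals.

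Gpr35, chr1:92972969-92973118, plus strand: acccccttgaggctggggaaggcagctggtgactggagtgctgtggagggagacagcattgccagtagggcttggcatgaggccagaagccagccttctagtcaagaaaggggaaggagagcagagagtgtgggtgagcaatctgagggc
Cphx, chr14:25942394-25942543, plus strand: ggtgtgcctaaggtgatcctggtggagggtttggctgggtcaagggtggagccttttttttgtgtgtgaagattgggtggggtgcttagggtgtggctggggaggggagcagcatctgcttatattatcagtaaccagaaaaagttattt
Il1f9, chr2:24186326-24186475, plus strand: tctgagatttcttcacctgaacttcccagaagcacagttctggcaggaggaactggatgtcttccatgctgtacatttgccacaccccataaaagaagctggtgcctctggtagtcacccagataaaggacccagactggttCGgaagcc
Ifitm6, chr7:141016893-141017042, minus strand: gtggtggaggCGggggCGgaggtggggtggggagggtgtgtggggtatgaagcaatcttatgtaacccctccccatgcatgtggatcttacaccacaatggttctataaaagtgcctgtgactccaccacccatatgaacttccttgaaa
Ccdc3, chr2:5137626-5137775, plus strand: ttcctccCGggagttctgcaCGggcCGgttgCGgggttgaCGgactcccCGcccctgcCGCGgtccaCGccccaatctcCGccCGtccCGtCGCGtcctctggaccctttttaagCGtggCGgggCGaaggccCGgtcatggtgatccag
Adcy1, chr11:7063283-7063432, plus strand: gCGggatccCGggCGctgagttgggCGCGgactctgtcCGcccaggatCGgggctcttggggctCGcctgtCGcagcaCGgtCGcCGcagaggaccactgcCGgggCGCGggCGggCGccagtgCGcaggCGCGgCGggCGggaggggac
Mllt11, chr3:95228678-95228827, minus strand: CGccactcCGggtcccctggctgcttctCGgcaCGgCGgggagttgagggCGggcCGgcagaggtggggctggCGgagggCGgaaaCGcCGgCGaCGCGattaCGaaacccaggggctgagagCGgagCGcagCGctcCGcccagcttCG

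The first 4 windows, at the starts of an orphan G protein-coupled receptor, a homeobox gene, an interleukin and an interferon-induced transmembrane protein, held 0, 0, 1 and 2 CpGs in 150 bases. Those of Ccdc3, Adcy1 and Mllt11 held 18, 22 and 20. Short motifs were looked for on both strands of the 300-base windows. The TATA box letters TATAAA stood in 5 of 31 windows (16.1%, those of Il17f, Steap4, Ifitm6, Cphx and Mettl7a2), in 6.73% of the genes of at least 3 RPKM and in 13.1% of all genes. The place of the match was not considered. It lay shortly before the start in Il17f and Ifitm6 only. In Cphx, Mettl7a2 and Steap4 it lay far upstream in the window, in Steap4 on the opposite strand. Of the letters bound by the oocyte homeodomain protein NOBOX, TAGTTG was found in 5 windows (16.1%, Ccdc3, Syde1, Fam19a2, Upp1 and Il31ra) against 4.90% and 6.37%, TAATTG in 1 (3.23%) against 4.97% and 6.90%, and the related TGATTG in 4 (12.9%) against 16.8% and 14.9%. The letters GGGCGG, read by Sp1-type factors, were in 41.9% against 68.6% and 47.9%, and the E-boxes CAGGTG and CACGTG were each in 9.68%, against 17.9% and 11% of the genes of at least 3 RPKM and 19.5% and 8.12% of all genes. A match of letters is not a bound site, and with 31 windows 1 gene is worth 3.23 percentage points. Repeats covered at least 50% of the 2 kb around the start at 2 of the 52 genes (3.85%), Cphx and Mbd3l2, at 1.05% of the genes of 3 to 50 RPKM and at 1.97% of all genes of chromosomes 1 to 19. For Mbd3l2 this is the start of its deposited row, which lies far from its RefSeq promoter.

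The level and the rise of the 52 genes were fixed by the choice and are given here as description. RPKM is a share of the RNA of a library, so a growth in total RNA per oocyte is not seen in it, and in a pool fewer cells of a type cannot be told apart from less RNA per cell. The ratio of 60–65 to 10–30 μm ran from 6.11 to 49.98 with a median of 8.15, and 17 genes had at least 10-fold. Most were modest in level: the median at 60–65 μm was 4.82 RPKM, 28 genes stayed under 5 RPKM and 11 had 10 RPKM or more. At 10–30 μm the median was 0.613 RPKM and 34 genes were below 1 RPKM. The largest ratios belonged to Mbd3l2 (50.0), Steap4 (46.1), Prr18 (30.7), Syde1 (22.0), Wls (19.3) and Pramef17 (18.9). Just inside the ratio stood Tcstv3 at 6.11, Ggta1 at 6.17 and Lrp1 at 6.20. Just outside were Tfap2e at 5.996, Aadac at 5.95 and BC023719 at 5.70. By level, Il31ra (3.06 RPKM), Wls (3.11) and Syde1 (3.18) passed narrowly, while Ms4a1 (2.98), C86695 (2.88) and A1bg (2.83) were narrowly left out.

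**Figure D2:**
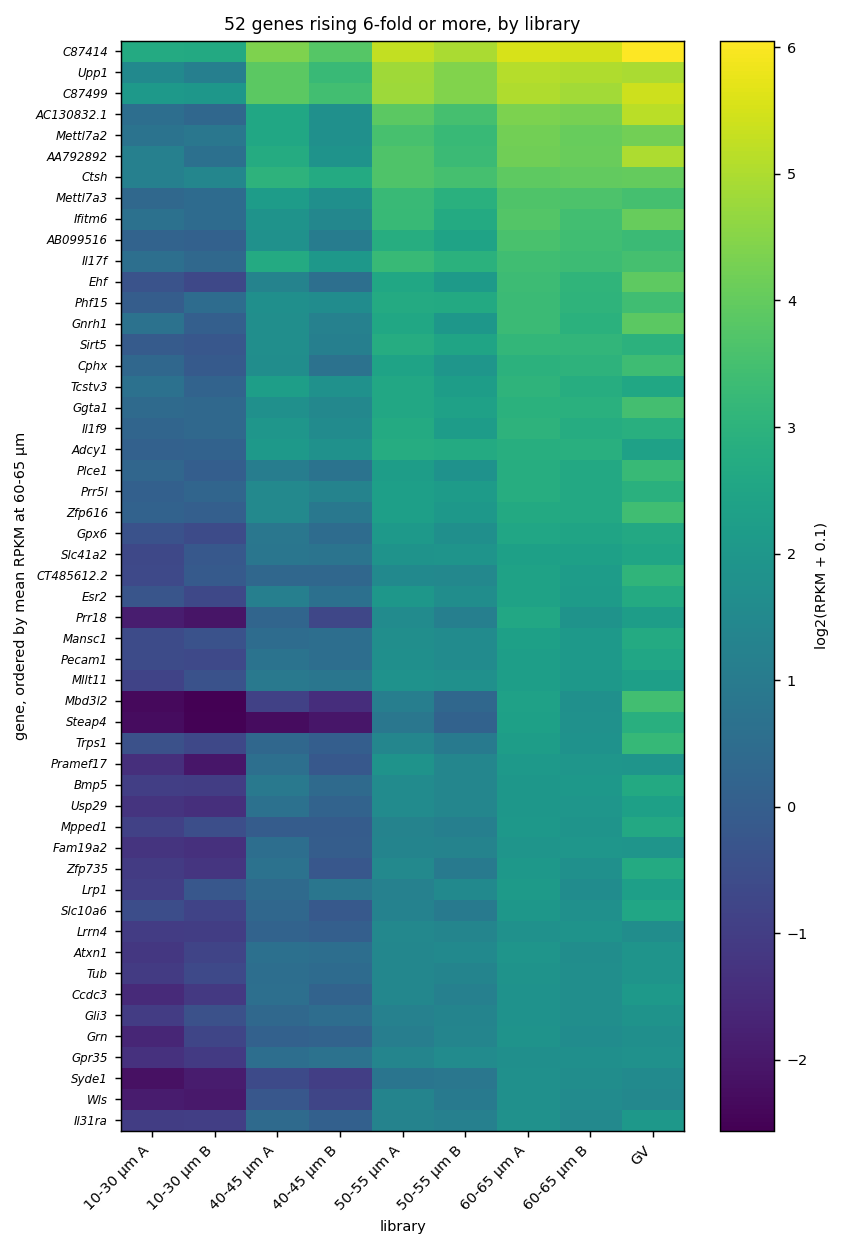
Each row is 1 of the 52 genes, ordered by mean RPKM at 60–65 μm, and each column 1 of the 9 RNA-seq columns, with log2(RPKM + 0.1) as colour. Every gene brightens from the left to the 60–65 μm columns, which the choice required at the 2 ends, and Steap4 is almost as dark at 40–45 μm as at 10–30 μm.

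The comparison of 40–45 with 50–55 μm asked whether the rise was under way between these classes. The difference was taken between 4 libraries that had no part in the choice, but the spread behind each p-value and the filter on low values came from all 8 libraries, those of the choice included. All 52 genes were tested among 10518 genes, since the minimum of 3 RPKM at 60–65 μm carried every one of them past the filter on low values. RNA of 45 rose from 40–45 to 50–55 μm (limma, Benjamini-Hochberg adjusted p below 0.05) and of 0 fell, against 5.89% of all tested genes higher and 3.21% lower. At an unadjusted p below 0.05, 51 were higher and 0 lower. The median log2 difference was 1.01 over the 52 genes and 0.01 over all tested genes. It was 0.61 over the 144 genes of 3 to 6 fold. Both 50–55 μm libraries lay above both 40–45 μm libraries for 51 genes (33.0% of all tested genes), and the exception was Tcstv3, with 4.74 and 3.41 RPKM at 40–45 μm and 6.00 and 4.62 at 50–55 μm. These genes had been chosen to differ between the classes on either side of this step, so a rise within it is no independent finding about which genes these are.

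The calls depended on the libraries used. With only the 4 libraries of 40–45 and 50–55 μm in the model, 38 of the 52 and 425 of 9951 genes in all were called higher. Without the A or the B library of 60–65 μm it was 32 of the 52 each time, and 268 and 263 genes in all, against 620 with all 8 libraries. Without the 40–45 μm B library, or without the 50–55 μm A library, no gene of the table passed the threshold (limma), although all 52 differences kept their sign and 46 had an unadjusted p below 0.05 in each case. Without 50–55 μm B 28 of the 52 and 199 genes in all were called higher. Each of these 3 fits, and a further one without 40–45 μm A, leaves 1 library in a class of the comparison. That class is then assumed to vary like the other classes. The median log2 difference of the 52 was 1.24 without 40–45 μm A and 0.81 without 40–45 μm B. It was 0.91 without 50–55 μm A and 1.15 without 50–55 μm B. The A libraries held more of these RNAs than the B libraries within each of these size classes: A exceeded B for 46 of 52 genes at 40–45 μm, with a median ratio of 1.35, and for 45 genes at 50–55 μm, with a median ratio of 1.24. Over all tested genes the median ratios were 0.966 and 1.00. At 60–65 μm A was again higher for 45 genes, with a median ratio of 1.12, and at 10–30 μm for 30, with 1.05. What sets A and B apart was not tested.

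**Figure D3:**
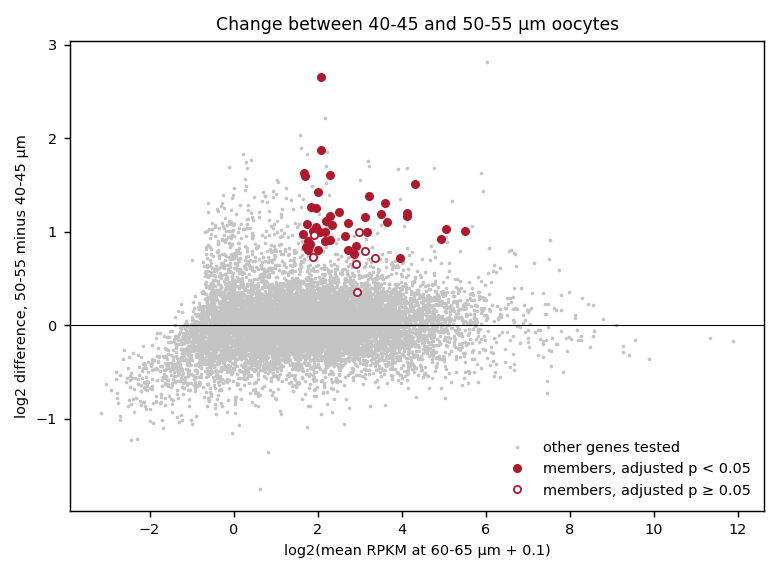
The x axis gives log2 of the mean RPKM at 60–65 μm plus 0.1, and the y axis the log2 difference of 50–55 minus 40–45 μm, for 10518 tested genes in grey and the 52 members in red, filled where the adjusted p was below 0.05. All 52 red points lie above 0, between 0.36 and 2.66.

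The 8 genes with the largest differences in this step were Steap4, Mbd3l2, Wls, Prr18, Syde1, AC130832.1, Pramef17 and Ehf. Steap4, a plasma membrane and endosomal metalloreductase that reduces iron and copper, had 0.106 and 0.0741 RPKM at 10–30 μm, 0.108 and 0.142 at 40–45 μm, 1.72 and 1.01 at 50–55 μm, 4.94 and 3.34 at 60–65 μm and 7.16 in the GV column. Its lower 40–45 μm library lay just above its higher 10–30 μm library. By 40–45 μm 0.863% of its total rise had taken place, and it rose between 40–45 and 50–55 μm (log2 difference 2.66, SE 0.26, adjusted p = 0.008). Mbd3l2, an MBD3-like gene without the methyl-binding domain of its relatives, had 0.0970 and 0.0697 RPKM at 10–30 μm, 0.433 and 0.267 at 40–45 μm, 2.07 and 1.15 at 50–55 μm, 5.04 and 3.29 at 60–65 μm and 10.9 in the GV column. Its classes did not overlap, and the GV value was the highest of its 9 columns (log2 difference 1.88, SE 0.31, adjusted p = 0.016 for 50–55 against 40–45 μm). Wls, the carrier that brings Wnt ligands to the cell surface, had 0.164 and 0.158 RPKM at 10–30 μm, 0.751 and 0.488 at 40–45 μm, 2.38 and 1.87 at 50–55 μm, 3.32 and 2.90 at 60–65 μm and 2.65 in the GV column (log2 difference 1.62, SE 0.20, adjusted p = 0.011). Prr18, a little-studied proline-rich protein whose gene lies wholly within Sft2d1 on the same strand, so that reads of both cannot be kept apart with certainty, had 0.173 and 0.138 RPKM at 10–30 μm, 1.09 and 0.502 at 40–45 μm, 2.94 and 2.16 at 50–55 μm, 5.97 and 3.58 at 60–65 μm and 4.60 in the GV column. Its A library was above B in each class, and the gene rose between the middle classes (log2 difference 1.61, SE 0.35, adjusted p = 0.028). Syde1, a GTPase-activating protein, had 0.122 and 0.166 RPKM at 10–30 μm, 0.547 and 0.419 at 40–45 μm, 1.62 and 1.72 at 50–55 μm, 3.27 and 3.08 at 60–65 μm and 2.82 in the GV column, and A and B were close to each other from 50–55 μm on (log2 difference 1.60, SE 0.15, adjusted p = 0.008). Ehf, an ETS transcription factor known from epithelial cells, had 0.677 and 0.519 RPKM at 10–30 μm, 2.36 and 1.41 at 40–45 μm, 5.82 and 4.30 at 50–55 μm, 10.2 and 8.39 at 60–65 μm and 14.9 in the GV column (log2 difference 1.38, SE 0.26, adjusted p = 0.02).

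**Figure D4:**
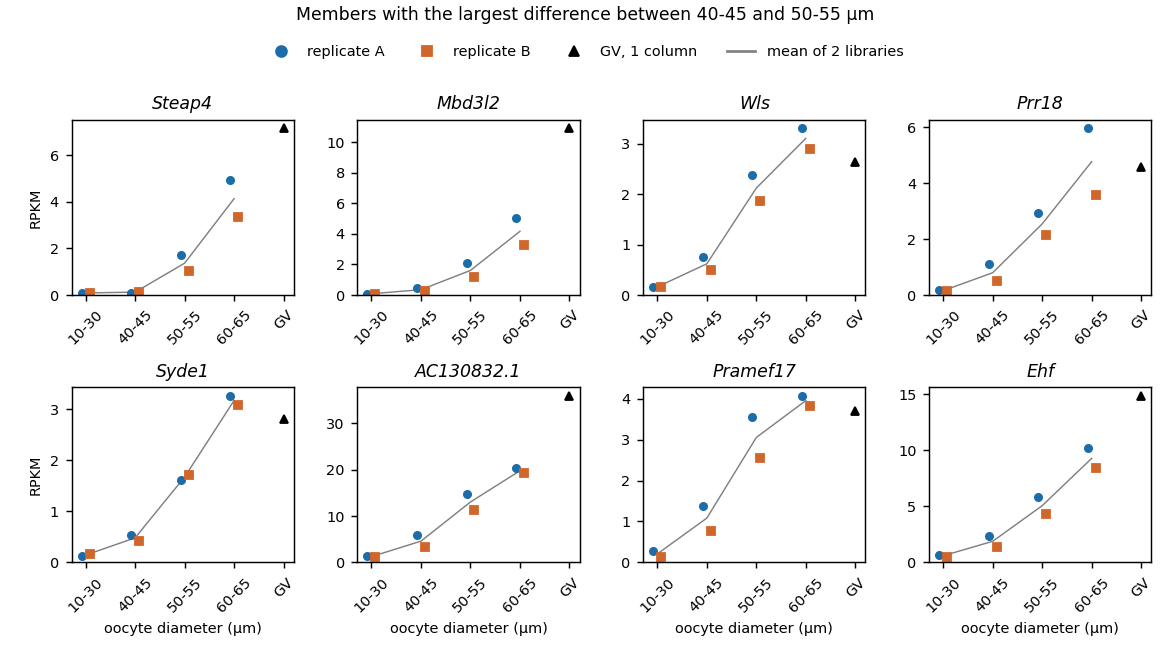
RPKM is plotted for the 8 members with the largest log2 difference between 40–45 and 50–55 μm, by size class, with replicates A and B as separate points, a line through the class means and the 1 GV value as a triangle. Steap4 stays near 0.1 RPKM until 40–45 μm and reaches 1.72 and 1.01 at 50–55 μm.

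Across the 52 genes the means were higher at each size class than at the one before. The median fold was 2.85 from 10–30 to 40–45 μm, 2.10 from 40–45 to 50–55 μm and 1.44 from 50–55 to 60–65 μm. The first step was the largest in fold for 41 genes, the second for 11 and the last for none. The choice required low values at 10–30 μm, which enlarges the first step, and that step also spans the widest range of diameters. The order of the steps is therefore a description and no finding on timing. In RPKM the order was different, since the levels were higher later: by 40–45 μm a median of 23.6% of the whole rise had taken place, with 0.863 to 45.1% over the genes, and by 50–55 μm 65.1%, with 31.5 to 90.0%. At least 50% of the rise had been made by 40–45 μm in 0 genes and by 50–55 μm in 46. Both ends of this rise are the classes that made the choice. Adcy1, a calcium-stimulated adenylyl cyclase that makes cAMP, was the earliest on this measure, with 45.1 and 90.0%, and Steap4 the latest.

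A group of 5 members are genes of the PRAME-like family or of its cluster on chromosome 5, which encode leucine-rich repeat proteins found in germ cells and early embryos: C87414 (RefSeq Pramel34), C87499 (Pramel32), Pramef17 (Pramel14), AA792892 and AC130832.1. C87414 (chr5:93634993-93671551) was the most abundant of all 52, with 6.42 and 6.30 RPKM at 10–30 μm, 20.6 and 13.8 at 40–45 μm, 38.5 and 31.0 at 50–55 μm, 46.0 and 45.5 at 60–65 μm and 66.3 in the GV column. It rose from 40–45 to 50–55 μm (log2 difference 1.01, SE 0.19, adjusted p = 0.021), and its GV value lay above all libraries of growing oocytes. C87499 on chromosome 4 followed with 4.11 and 3.86 RPKM at 10–30 μm, 14.5 and 10.8 at 40–45 μm, 27.3 and 21.5 at 50–55 μm, 32.4 and 28.6 at 60–65 μm and 42.3 in the GV column (log2 difference 0.92, SE 0.18, adjusted p = 0.021). AC130832.1 had 1.37 and 1.14 RPKM at 10–30 μm, 5.87 and 3.31 at 40–45 μm, 14.8 and 11.3 at 50–55 μm, 20.2 and 19.2 at 60–65 μm and 35.9 in the GV column, which makes it one of the genes highest in GV relative to 60–65 μm (log2 difference 1.51, SE 0.26, adjusted p = 0.017 for 50–55 against 40–45 μm). AA792892 rose by 1.17 and Pramef17 by 1.43 on the log2 scale. C87414, AA792892 and AC130832.1 follow one another along chromosome 5, with gaps of 668198 and 603616 bases. Members of this family are near-identical in places, and reads that fit several places were kept at 1 of them, so the division between these genes is uncertain.

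The members are ordered by role below, in groups formed after their values were seen, so a count of calls in a group is read against the 86.5% of all 52 members that rose and not as a result about the role. Enzymes made up 12 members, and all 12 rose between the middle classes, by 0.72 to 2.66 on the log2 scale. Upp1, uridine phosphorylase, which splits uridine into uracil and ribose phosphate, had 2.81 and 2.16 RPKM at 10–30 μm, 14.7 and 9.54 at 40–45 μm, 28.5 and 21.4 at 50–55 μm, 34.3 and 32.5 at 60–65 μm and 31.1 in the GV column. No size class overlapped with the next, and the GV value lay just below both 60–65 μm libraries (log2 difference 1.03, SE 0.24, adjusted p = 0.036). Ctsh, the lysosomal protease cathepsin H, had 2.17 and 2.52 RPKM at 10–30 μm, 7.88 and 6.36 at 40–45 μm, 12.6 and 11.3 at 50–55 μm, 15.1 and 15.7 at 60–65 μm and 16.2 in the GV column (log2 difference 0.72, SE 0.13, adjusted p = 0.02). The methyltransferase-like genes Mettl7a2 and Mettl7a3 stand side by side on chromosome 15 with the member AB099516. Mettl7a2 (chr15:100353200-100361840) lies wholly inside AB099516 (chr15:100353149-100383964) on the same strand, so these values share reads and count as 1 locus in part. AB099516 also overlaps Higd1c, which is not a member, over 19423 bases of the same strand. Their means at 60–65 μm were 17.5 RPKM for Mettl7a2, 12.5 for Mettl7a3 and 11.2 for AB099516, with log2 differences of 1.20, 1.11 and 1.19 in the middle step. Sirt5, a mitochondrial enzyme that removes succinyl and malonyl groups from lysines, had 0.832 and 0.759 RPKM at 10–30 μm, 3.15 and 2.12 at 40–45 μm, 6.71 and 5.38 at 50–55 μm, 8.70 and 8.53 at 60–65 μm and 7.79 in the GV column (log2 difference 1.16, SE 0.19, adjusted p = 0.017). Besides Steap4, the others were Gpx6 (a glutathione peroxidase, 1.21), Ggta1 (which makes the alpha-galactosyl sugar of cell surfaces, 0.85), Adcy1 (0.76), Plce1 (a phospholipase C, 1.09), the metallophosphoesterase-domain gene Mpped1 (1.25) and Usp29 (a deubiquitinase, 1.04). The table's row for Usp29 covers 2610 bases near the end of the much longer RefSeq gene.

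Signalling ligands and proteins of their release made up 7 members, and 4 of these rose in the middle step. Bmp5, a bone morphogenetic protein, had 0.418 and 0.402 RPKM at 10–30 μm, 1.78 and 1.24 at 40–45 μm, 2.90 and 2.53 at 50–55 μm, 3.93 and 3.95 at 60–65 μm and 6.33 in the GV column (log2 difference 0.80, SE 0.17, adjusted p = 0.028). Grn (progranulin, a secreted growth factor) rose by 1.09, Fam19a2 (a chemokine-like secreted protein, RefSeq Tafa2) by 1.02 and Wls by 1.62 on the log2 scale. The other 3 did not pass the test. Il17f, a cytokine of T helper cells, had 1.42 and 1.19 RPKM at 10–30 μm, 6.45 and 3.97 at 40–45 μm, 9.48 and 7.64 at 50–55 μm, 10.6 and 10.0 at 60–65 μm and 11.4 in the GV column, with a difference of 0.72, 95% interval 0.19 to 1.24, adjusted p = 0.085. Gnrh1, the precursor of the gonadotropin-releasing hormone of the hypothalamus, had 1.51 and 0.930 RPKM at 10–30 μm, 3.10 and 2.26 at 40–45 μm, 5.79 and 3.89 at 50–55 μm, 9.77 and 7.59 at 60–65 μm and 14.6 in the GV column, with 0.80, 95% interval 0.15 to 1.45, adjusted p = 0.11. In both genes the B library of 50–55 μm was above the A library of 40–45 μm, and A was above B in both classes. Il1f9 (interleukin-36 gamma, RefSeq Il36g) had a difference of 0.65, 95% interval 0.22 to 1.09, adjusted p = 0.066.

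Of 5 receptors and surface proteins, 4 rose. Esr2, the oestrogen receptor beta, which in the ovary is best known from granulosa cells, had 0.723 and 0.525 RPKM at 10–30 μm, 2.12 and 1.44 at 40–45 μm, 3.87 and 3.04 at 50–55 μm, 5.17 and 4.43 at 60–65 μm and 6.41 in the GV column (log2 difference 0.91, SE 0.23, adjusted p = 0.045). Pecam1, an adhesion molecule known from endothelium, had 0.567 and 0.531 RPKM at 10–30 μm, 1.57 and 1.38 at 40–45 μm, 3.23 and 2.90 at 50–55 μm, 4.70 and 4.19 at 60–65 μm and 5.68 in the GV column, with A and B close in each class (log2 difference 0.99, SE 0.12, adjusted p = 0.011). Gpr35 rose by 0.84 and Il31ra, a cytokine receptor chain, by 0.97 on the log2 scale. Lrp1, a large endocytic receptor, had 0.415 and 0.757 RPKM at 10–30 μm, 1.23 and 1.67 at 40–45 μm, 2.22 and 2.77 at 50–55 μm, 4.25 and 3.02 at 60–65 μm and 4.84 in the GV column. In this gene B was above A in the first 3 classes and below it at 60–65 μm, and the difference of the middle step did not pass (0.73, 95% interval 0.17 to 1.29, adjusted p = 0.098).

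The levels of cell type markers were read beside these genes because oocytes are washed free of follicle cells by hand. Of 14 granulosa cell markers, 12 had a higher mean at 60–65 than at 10–30 μm, and their summed level went from 2.12 and 2.52 RPKM (A and B) at 10–30 μm to 6.92 and 6.46 at 60–65 μm. Most of this was Nr5a2, a nuclear receptor gene, and the sum of the other 13 went from 0.832 and 0.790 to 2.11 and 1.86 RPKM, with no single value above 0.542. Only 2 of the 14 passed the filter on low values, Inha (log2 difference 0.81) and Nr5a2 (0.56), and both rose in the middle step. The summed level of the 10 theca and stroma markers went the other way, from 4.02 and 2.87 to 1.18 and 1.12 RPKM, although 4 of the 10 had a higher mean at 60–65 than at 10–30 μm. Of these 3 passed the filter, the collagen genes Col1a1, Col1a2 and Col3a1, and 0 were called in the middle step (limma, 0 at an unadjusted p below 0.05). Of 6 blood and endothelium markers in the table, Pecam1 is a member, and the other 5 summed to 0.0379 to 0.198 RPKM in the 8 libraries, with no single value above 0.0817. Of the 6, 2 had a higher mean at 60–65 than at 10–30 μm, Pecam1 and the haemoglobin gene Hba-a1. Hba-a1 went from 0 and 0.0232 to 0.0586 and 0.0817 RPKM (A and B). The oocyte markers summed to 2437 to 3326 RPKM. The part of follicle cell RNA in the members' rise was not tested.

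Transcription factors and chromatin proteins made up 8 members, of which 6 rose. Besides Ehf and Mbd3l2, these were Phf15 (RefSeq Jade2, a scaffold of a histone acetyltransferase complex, 0.99), Trps1 (a GATA-type repressor, 0.99), Gli3 (a zinc finger protein of the Hedgehog pathway, 0.80) and the zinc finger gene Zfp616 (0.96). Trps1 had 0.653 and 0.514 RPKM at 10–30 μm, 1.15 and 0.917 at 40–45 μm, 2.51 and 1.88 at 50–55 μm, 4.61 and 3.44 at 60–65 μm and 9.07 in the GV column, with its highest value in GV oocytes. Cphx, a homeobox gene of the oocyte and cleavage embryo, had 1.15 and 0.813 RPKM at 10–30 μm, 3.04 and 1.52 at 40–45 μm, 5.27 and 3.77 at 50–55 μm, 7.78 and 7.94 at 60–65 μm and 10.3 in the GV column, with a difference of 1.00, 95% interval 0.27 to 1.72, adjusted p = 0.084. Its B library of 40–45 μm was far below A. Zfp735, which lies 356157 bases from Zfp616 on chromosome 11, had a difference of 0.96, 95% interval 0.28 to 1.65, adjusted p = 0.08.

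Among the other members, both transporter genes rose in the middle step, Slc41a2 (magnesium) by 1.07 and Slc10a6 (steroid sulphates) by 1.00 on the log2 scale. The 13 remaining genes had means of 3.18 to 12.1 RPKM at 60–65 μm, and 12 rose, by 0.81 to 1.61. They include Ifitm6 (1.31), the mTOR complex-associated Prr5l (0.81), the leucine-rich repeat gene Lrrn4 (1.27), Mansc1 (1.11), Mllt11 (0.90), the secreted factor gene Ccdc3 (0.90), the neuronal genes Tub (0.85) and Atxn1 (0.87), and CT485612.2 (1.17). The exception was Tcstv3, a gene of a family known from 2-cell embryos and stem cells, which had 1.46 and 1.02 RPKM at 10–30 μm, 4.74 and 3.41 at 40–45 μm, 6.00 and 4.62 at 50–55 μm, 8.21 and 6.97 at 60–65 μm and 5.82 in the GV column. Its difference was the smallest of all 52 (0.36, 95% interval -0.17 to 0.89, adjusted p = 0.34), and its row is only 510 bases long.

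The well-known products of the oocyte were read from 11 lists in the same step. Of 96 listed genes 92 were in the table and 0 were members, a count that says little, since the choice left out chromosome X and several oocyte families and 52 of 25965 genes are members. Of 78 tested, 3 rose and 3 fell between 40–45 and 50–55 μm (limma), near the 5.89% higher and 3.21% lower of all tested genes, while 26 had an unadjusted p below 0.05. The median log2 difference over the 78 was 0.09. None of the 3 zona pellucida genes was called (median −0.22, 1 with an unadjusted p below 0.05) and the highest ratio of 60–65 to 10–30 μm among them was 1.03. Other lists held higher ratios, with 20.2 for Cyp11a1 and 4.95 for Cdh2, both too low to be tested, and 3.88 for Ccnb3 on chromosome X. Of 4 oocyte-secreted growth factors 1 rose (median 0.16), of 9 oocyte transcription factors 3 fell and 0 rose (median −0.14), and of 4 tested genes of the subcortical maternal complex 0 were called (median −0.18, 1 with an unadjusted p below 0.05). Of 14 genes of meiotic arrest and resumption 1 rose (median 0.26), and of 4 amino acid and ion transport genes 1 rose (median 0.08). No gene was called among 8 of the egg surface and cortical granules (median −0.02, 0 at an unadjusted p below 0.05), 14 of maternal mRNA storage and translation (0.05, 3), 12 maternal effect genes of the early embryo (0.05, 3), 3 of steroid synthesis (0.24, 3) and 5 of gap junctions and transzonal contact (0.16, 2).

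The GV column was compared with the 60–65 μm class as values only, since it has no replicate and the 60–65 μm libraries took part in the choice. The GV value exceeded the 60–65 μm mean for 38 of the 52 genes, exceeded both libraries for 37 and was below both for 11. The median ratio was 1.23, compared with 0.99 over the genes of at least 3 RPKM, 47.3% of which were higher in GV. At least 2-fold higher were Mbd3l2 (2.62) and Trps1 (2.25), whereas 0.0571% of the genes of at least 3 RPKM were that much higher, which is 3 genes. None of the 52 was 2-fold lower, as were 0.0571% of the genes of at least 3 RPKM. At 1.5-fold 13 of the 52 were higher and 0 lower, against 0.724% and 1.31% of those genes. AC130832.1 (1.82), AA792892 (1.81) and Zfp735 (1.74) came next. The lowest ratios were those of Adcy1 (0.698), Tcstv3 (0.768), Wls (0.852), Lrrn4 (0.882) and AB099516 (0.883).

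Gene body methylation at 60–65 μm was read from the PBAT library as the mean percent over CpG cytosines with at least 5 reads, for genes with at least 10 such positions. It could be given for 43 of the 52 genes, with 10 to 1383 positions each, and not for the other 9. The median over the 43 genes was 37.1%, with a middle 50% of 21.5 to 50.1% and a range of 8.07 to 61.7%, and 11 genes had 50% or more. The 4896 genes of 3 to 50 RPKM with a value had a median of 30.3% and a middle 50% of genes from 16.7 to 42.4%. This order changed when the sequence next to the start was left out, which also changes which genes keep at least 10 positions. Without the first 2 kb of each gene, the median was 47.4% for the members, below the 51.1% of the genes of 3 to 50 RPKM, and the 3- to 6-fold genes had 41.4%. The members' starts hold fewer CpGs, as described above. Their part in this change of order, and that of genes lost with the first 2 kb, was not tested. There is 1 PBAT library, so no test was made.

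The highest gene body values were those of Gpr35, 61.7% over 88 positions (pooled calls 63.8%, Wilson 95% interval 60.1 to 67.2), Usp29, 61.0% over 10 positions (pooled calls 65.4%, Wilson 95% interval 54.6 to 74.9), and Il31ra, 57.7% over 114 positions (pooled calls 53.3%, Wilson 95% interval 49.9 to 56.6). Lrp1 had 57.7% over 1263 positions (pooled calls 58.0%, Wilson 95% interval 57.0 to 58.9) and AC130832.1 56.8% over 17 positions (pooled calls 61.3%, Wilson 95% interval 53.0 to 69.1). The rows of the genes at this end are 2610 to 82988 bases long. The shortest is that of Usp29, which covers only a part near the end of its RefSeq gene. The lowest was Prr18 with 8.07% over 197 positions (pooled calls 7.31%, Wilson 95% interval 6.24 to 8.56), followed by Gnrh1 with 10.1% over 14 positions (pooled calls 11.3%, Wilson 95% interval 7.67 to 16.4), which are short genes of 3707 and 4207 bases. Plce1 and Esr2 are long, 260902 and 56841 bases, and still had only 11.1% over 480 positions (pooled calls 11.2%, Wilson 95% interval 10.2 to 12.4) and 11.1% over 134 positions (pooled calls 11.2%, Wilson 95% interval 9.32 to 13.4). AB099516 came next with 14.6% over 103 positions (pooled calls 16.6%, Wilson 95% interval 14 to 19.6). The intervals cover counting error in this library only.

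**Figure D5:**
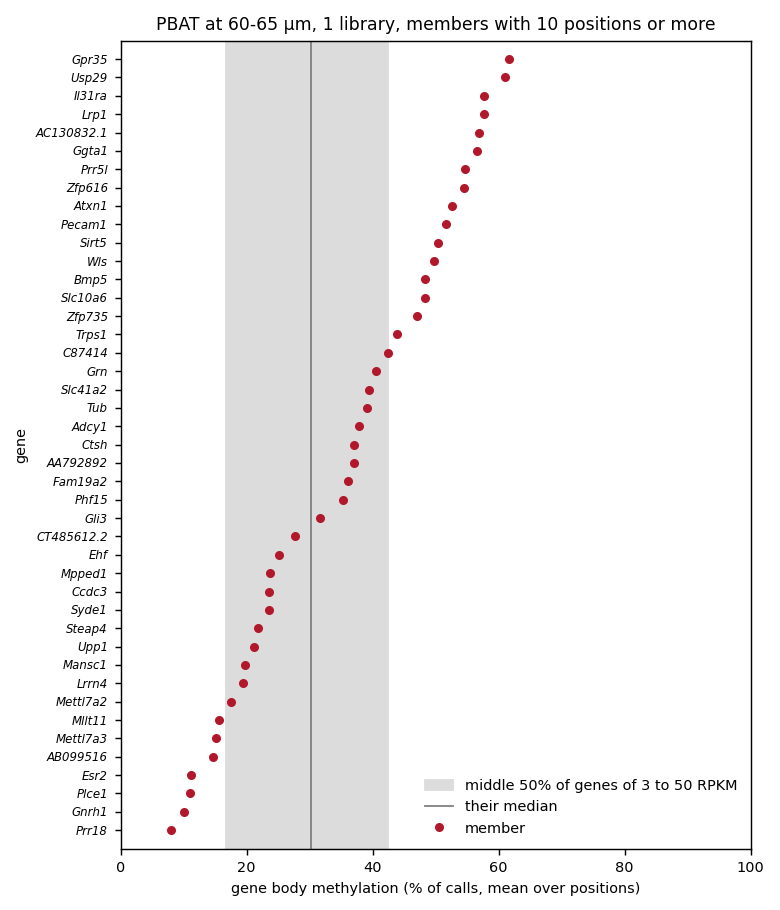
Each point is the gene body methylation of 1 of the 43 members with at least 10 positions in the PBAT library of 60–65 μm oocytes, in percent, and the grey band with its line gives the middle 50% and the median of genes of 3 to 50 RPKM. The members run from 8.07% for Prr18 to 61.7% for Gpr35 and reach beyond the band of 16.7 to 42.4% at both ends.

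Within 1 kb of the start, 26 members had enough positions, and these are the more CpG-rich ones. Their median methylation was 4.08%, 19 were under 10% and 0 reached 50%, close to the 3.40% of the genes of 3 to 50 RPKM. RRBS, with duplicates at 3 size classes, reached 13 gene bodies with enough covered positions and methylation to be tested. Methylation rose from 40–45 to 60–65 μm in 12 of the 13 (edgeR quasi-likelihood test, adjusted p below 0.05), and in 89.8% of the 3312 genes tested. Only genes whose 6 libraries averaged 5% or more were tested, and with low values at 40–45 μm a gene passes this mostly through the later classes, so a gain was close to fixed in advance and these counts support nothing. Values in all 6 libraries were present for 20 members, and 7 of them lay below the minimum: Ccdc3, Gli3, Fam19a2, Mpped1, Syde1, Trps1 and Prr18. Without the minimum, 15 of the 20 were called higher and 0 lower, with 36.1% of 11264 genes higher, a share that includes silent genes. Of the 13 genes Ctsh was the exception, with 1.13 and 0% (A and B) in 40–45 μm oocytes, 4.71 and 0.0597% in the 50–55 μm class and finally 8.41 and 18.3% in 60–65 μm oocytes (adjusted p = 0.054). Lrp1 had 3.27 and 2.05% (A and B) in 40–45 μm oocytes, 22.4 and 22.3% in the 50–55 μm class and finally 44.2 and 47.0% in 60–65 μm oocytes, and Pecam1 had 2.21 and 2.52% (A and B) in 40–45 μm oocytes, 22.0 and 28.8% in the 50–55 μm class and finally 51.6 and 46.6% in 60–65 μm oocytes. In both genes no size class overlapped with the next. Plce1, low in PBAT, had 2.76 and 7.22% (A and B) in 40–45 μm oocytes, 12.9 and 15.8% in the 50–55 μm class and finally 14.5 and 12.8% in 60–65 μm oocytes. The medians of the 13 genes were 2.10 and 1.63% (A and B) in 40–45 μm oocytes, 10.9 and 13.4% in the 50–55 μm class and lastly 17.0 and 18.3% in 60–65 μm oocytes, where all genes tested had 17.3 and 18.9%.

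The 52 genes were spread over 16 chromosomes, and 8 of them lay within 1 Mb of another member: the pairs and triplets on chromosomes 5, 11 and 15 named above. Their rows had a median length of 23664.5 bases, close to the 23407 of the genes of 3 to 50 RPKM.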

How the data were processed

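RNA-seq, RRBS and PBAT libraries of size-sorted mouse oocytes were used. Reads were trimmed with Trim Galore and mapped to GRCm38, RNA-seq with TopHat2 2.0.9 keeping 1 place per read, and bisulphite reads with Bismark. The authors deposited RPKM per gene. Their methods name Cufflinks for transcript expression and SeqMonk for work on the RNA-seq data, and do not say which made these RPKM. For each CpG cytosine the authors deposited the percent methylated and the counts of methylated and unmethylated calls. Members, lists and tests were chosen with earlier results of these data known, and role groups after seeing values.

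RPKM was scaled by a trimmed mean (30% by ratio and 5% by level at each end), and log2(RPKM + 0.1) of genes with at least 0.5 RPKM in 2 of 8 libraries was tested with limma 3.58.1 with a variance trend in a model of the 4 size classes, with p-values adjusted by Benjamini-Hochberg and a threshold of 0.05, so fold changes of low genes are understated. RRBS calls at positions with at least 5 reads, 10 positions per gene and a mean of 5% were tested with edgeR 4.0.16. Both tests were tried on simulated data. Named genes were the most abundant, the 8 largest changes, the extremes of PBAT and GV, those nearest the thresholds and members on lists, and further members were named to account for all 52.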

Additional observations from a re-analysis of the deposited data

How the results depend on the processing

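The number of members was 52, became 41 when A and B each had to pass on their own, and 53 on scaled RPKM. Of 16 alternatives for the 45 members called between 40–45 and 50–55 μm, 12 stayed within 1.5 times. Without the filter on low values 27 members and 520 genes in all were called, with 20052 genes tested. Leaving out 1 library gave 0 to 46 members and 0 to 1604 genes in all, against 958 with all libraries, and the cause was not tested. With the letter as a replicate block, 51 members and 1882 genes were called, among them the 45 and 6 of the 7 other members, all but Lrp1 (adjusted p = 0.054, limma). The correlation of A deviations between size classes ran from −0.23 to 0.67, with −0.23, −0.03 and 0.11 for the pairs that include 60–65 μm and 0.59 to 0.67 for the others. The block was not taken as the main model, because nothing in the labels ties A or B across classes and not every pair exceeded 0.1. In RRBS the replicate block left 12 members, as did no block, and all 11 alternatives stayed within 1.5 times. At 1.5-fold, 13 members were above 60–65 μm in GV and 0 below, against 2 above at 2-fold. The median gene body methylation of 37.1% became 39.7% with positions of at least 1 read, 35.2% with at least 10, 37.5% in genes of at least 4 kb and 47.4% without the first 2 kb. With 99.4 to 198 reads per kb at 1 RPKM, genes near 0.1 RPKM rested on few reads, and the 1 PBAT library had a median of 2 calls per position.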
